A study of Mus musculus with 10 samples.

Results

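The skeletal muscle genes described here are 34 genes of the muscle lineage, measured in cultures of mouse embryonic fibroblasts. They comprise the myogenic transcription factors, the subunits of the muscle acetylcholine receptor, calcium handling proteins and the proteins of the sarcomere, the contractile unit of striated muscle. The genes were taken from a written list, and among the probe sets annotated to a single symbol, the brightest on average over the 10 arrays stood for each gene. All 34 were on the array, of 22180 genes measured in all. Total RNA came from 5 cultures with a Zbtb4 knock-out (KO) and from 5 wild-type cultures (WT), 1 array each. The protein of Zbtb4 recognises methylated DNA through zinc fingers. The fibroblasts came from the back skin of embryos at embryonic day 13.5, after the head and organs had been taken off. Neither the deleted portion of Zbtb4 nor the number of embryos behind an array is given in the labels, so p-values here measure the spread between these cultures only.

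Skeletal muscle forms from progenitors that express Pax3 and Pax7. The bHLH factors Myf5 and Myod1 commit these cells to the muscle lineage, and Myog and Myf6 then drive fusion and the genes of the sarcomere, together with Mef2 proteins. In the mouse embryo, muscle precursors lie beneath the dermis of the back, and a fibroblast culture made by digesting tissue can hold some of them. Several of the 34 genes are not particular to skeletal muscle: Des, Acta1 and Actc1 are also transcribed in contractile fibroblasts, smooth muscle or heart, and Tnnt2 and Tnnc1 in heart. In total RNA from a whole culture, fewer cells of a type and less RNA per cell cannot be told apart.

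The myogenic factors bind the E-box (CANNTG) and serum response factor binds the CArG box, both of which are well studied at the promoters of muscle genes. The 250 bases before the start of 4 genes that the results turn on are given 5′ to 3′, from RefSeq on GRCm38.p6, with each E-box and CArG box in capitals. Myog is the differentiation factor itself, Mylpf varied most between cultures, and the actin genes Acta1 and Actc1 were among the 3 genes with the widest genotype differences. The remaining gene of those 3, Des, is not printed, and its window held 2 E-boxes and 0 CArG boxes.
Myog promoter, chr1:134289754-134290003, plus strand: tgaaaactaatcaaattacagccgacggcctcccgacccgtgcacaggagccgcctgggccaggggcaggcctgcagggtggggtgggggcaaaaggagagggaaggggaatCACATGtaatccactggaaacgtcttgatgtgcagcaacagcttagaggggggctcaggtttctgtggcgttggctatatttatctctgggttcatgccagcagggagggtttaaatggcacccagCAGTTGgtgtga
Mylpf promoter, chr7:127211358-127211607, plus strand: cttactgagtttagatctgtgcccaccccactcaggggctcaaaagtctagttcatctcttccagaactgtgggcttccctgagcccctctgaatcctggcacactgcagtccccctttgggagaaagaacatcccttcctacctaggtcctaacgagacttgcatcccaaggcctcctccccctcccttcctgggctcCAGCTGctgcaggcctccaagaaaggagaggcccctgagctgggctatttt
Acta1 promoter, chr8:123894776-123895025, minus strand: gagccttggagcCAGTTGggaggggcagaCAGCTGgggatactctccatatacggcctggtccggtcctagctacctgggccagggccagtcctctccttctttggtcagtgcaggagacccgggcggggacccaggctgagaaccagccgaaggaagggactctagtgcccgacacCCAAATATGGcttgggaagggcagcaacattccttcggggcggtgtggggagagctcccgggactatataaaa
Actc1 promoter, chr2:114052876-114053125, minus strand: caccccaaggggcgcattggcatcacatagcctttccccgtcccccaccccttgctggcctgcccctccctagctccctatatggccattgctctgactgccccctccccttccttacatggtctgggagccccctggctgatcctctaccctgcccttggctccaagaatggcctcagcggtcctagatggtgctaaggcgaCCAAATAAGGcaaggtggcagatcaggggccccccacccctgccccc
Both strands were searched, and the motifs did not overlap each other in these windows. Of the 34 genes, 27 had a promoter in the table, and 20 of the 27 (74.1%) held an E-box, against 66.0% of the first windows of all 27025 genes. A CArG box was found in Acta1 and Actc1 only among the 27 (7.41%), against 1.40% of all genes. A match of letters is a description of the window, not evidence of binding.

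Values are log2 units as deposited, and no measure of signal over background came with them. As a yardstick, the 1105 olfactory receptor genes, which fibroblasts are not known to use, had a median of 2.20 and a 95th percentile of 3.94. Probe sets differ in brightness for the same amount of RNA, so this level is no detection limit, and levels of different genes are not set against each other. By their means over 10 arrays, 20 of the 34 genes lay above the olfactory 95th percentile and 14 did not, with means of 2.54 to 3.88. All 14 measured fibroblast markers lay above it, among them Vim, an intermediate filament of mesenchymal cells, with a mean of 12.12, and Col1a1, a chain of type I collagen, with a mean of 10.44. The probe set for Zbtb4 had 5.44, 5.76, 5.04, 5.62 and 5.39 on the KO arrays, against 6.06, 6.03, 5.94, 6.23 and 6.11 on the WT arrays. Those groups did not overlap, although the difference of -0.62 did not pass the adjustment over all genes (limma adjusted p = 0.628; exact permutation p = 0.00794, the smallest that splits of 10 arrays into 5 and 5 can give). Array medians lay between 3.89 and 3.93. By the mean level of the Y-linked genes Uty, Kdm5d and Eif2s3y, KO arrays 1 and 3 and WT arrays 1 and 3 came from male cultures, and arrays 2, 4 and 5 of both genotypes came from female ones.

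No skeletal muscle gene differed between KO and WT cultures at a limma adjusted p under 0.05, and the smallest adjusted p among the 34 was 0.821. The same was true of the whole table, in which 0% of 22180 genes passed in either direction. Mean levels were higher in KO cultures for 19 genes and lower for 15 (17 and 17 under quantile normalization, 18 and 16 after median centring), and the median difference of the 34 was 0.027 log2 units, beside 0.0020 over all genes, of which 50.7% had a higher mean in KO cultures. A single gene, Acta1, had an unadjusted limma p under 0.05 with a higher mean in KO cultures, where 3.25% of all genes did, and 0 genes had one with a lower mean, where 2.73% of all genes did. For none of the 34 did the KO and WT arrays separate without overlap, which they did for 0.987% of all genes. Only Acta1, Des, Actc1 and Mylpf had differences beyond the span of -0.23 to 0.23 that held the other 30. The median standard error of a difference was 0.13, and the number of arrays limits the precision.

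**Figure D1:**
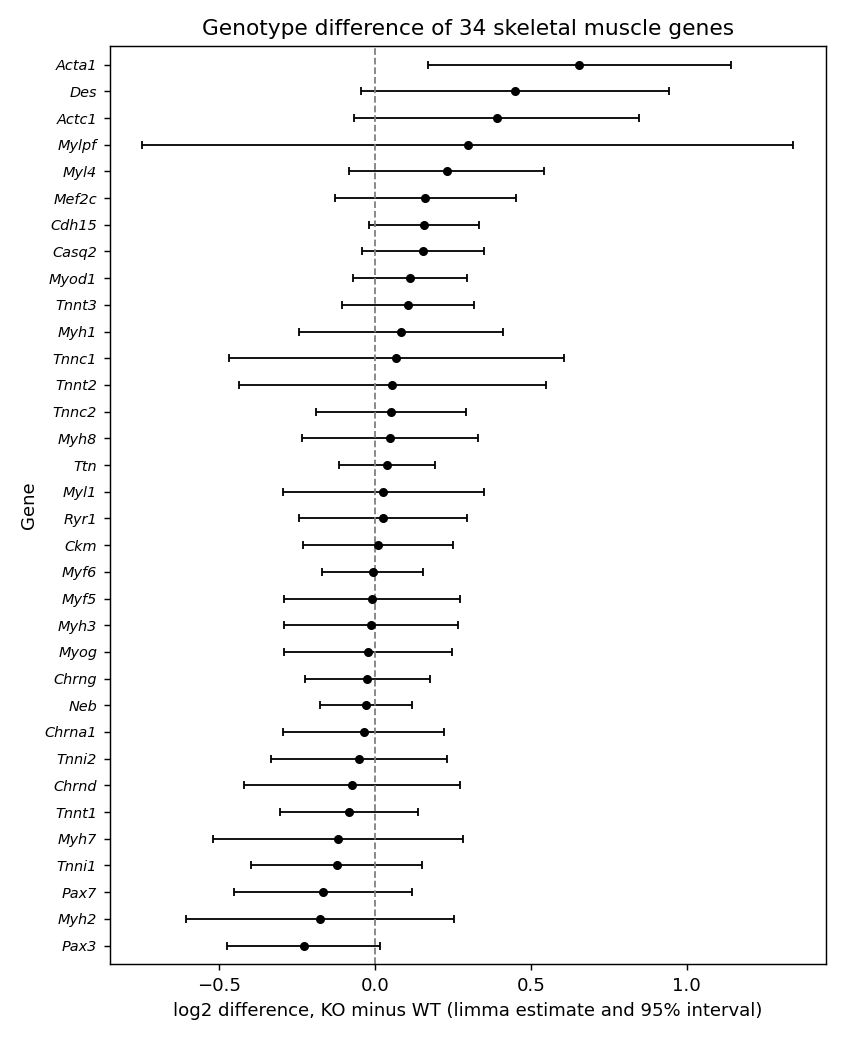
Difference of each of the 34 skeletal muscle genes, KO minus WT, in log2 units on the horizontal axis, 1 gene per line; points are limma estimates from 5 KO and 5 WT arrays and bars are 95% intervals. The interval of Acta1, 0.17 to 1.14, is the only one that does not hold 0.

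The transcription factors of muscle progenitors had low values in both genotypes. Pax3, a paired box factor of the embryonic muscle progenitor that is also used in neural crest, had 3.02, 3.21, 2.99, 3.32 and 3.26 on the KO arrays, against 3.25, 3.50, 3.10, 3.39 and 3.70 on the WT arrays. Its mean was 3.16 ± 0.15 in KO cultures and 3.39 ± 0.23 in WT cultures (SD, n = 5 each), a difference of -0.23 that did not pass (95% interval -0.48 to 0.02; limma adjusted p = 0.835; exact permutation p = 0.0952). The KO and WT ranges overlapped, and both lay under the olfactory 95th percentile. Pax7, its paralogue in muscle stem cells, had 4.09, 4.03, 4.0, 3.56 and 3.90 on the KO arrays, against 4.34, 4.14, 4.30, 3.77 and 3.85 on the WT arrays. Array 4 held the lowest Pax7 value of both genotypes. The Pax7 difference of -0.17 had an interval of -0.45 to 0.12 (limma adjusted p = 0.861; exact permutation p = 0.294).

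The determination factors did not separate the genotypes. Myf5, the earliest bHLH factor of the lineage, had 3.76, 3.62, 4.15, 4.09 and 4.31 on the KO arrays, against 4.07, 3.74, 4.01, 3.97 and 4.19 on the WT arrays. In both genotypes array 2 was lowest and array 5 highest, and the difference was -0.01 (limma adjusted p = 0.993; exact permutation p = 0.944). Myod1, which can turn fibroblasts into muscle when it is forced on, had 3.93, 4.06, 3.98, 4.20 and 3.96 on the KO arrays, against 3.81, 4.08, 3.95, 3.77 and 3.96 on the WT arrays. These values lay within 0.43 log2 units of each other and straddled the olfactory 95th percentile. The Myod1 difference was 0.11, with an interval of -0.07 to 0.29 (limma adjusted p = 0.858; exact permutation p = 0.175).

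The differentiation factors did not separate the genotypes either. Myog, myogenin, had 4.18, 4.33, 3.92, 4.32 and 4.61 on the KO arrays, against 4.58, 4.27, 4.12, 4.18 and 4.32 on the WT arrays. Its highest values were on KO array 5 and WT array 1, and the difference was -0.02 (limma adjusted p = 0.988; exact permutation p = 0.913). Myf6, or Mrf4, stood at 2.61 to 2.90 on the KO arrays and at 2.63 to 2.82 on the WT arrays, with a difference of -0.0065 (limma adjusted p = 0.993; exact permutation p = 0.913). Mef2c, a MADS-box partner of the bHLH factors that is also used in endothelium and neural crest, had 5.75, 5.91, 5.40, 5.60 and 5.78 on the KO arrays, against 5.72, 5.80, 5.67, 5.21 and 5.24 on the WT arrays. Its lowest values were on WT arrays 4 and 5, and the groups overlapped.

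**Figure D2:**
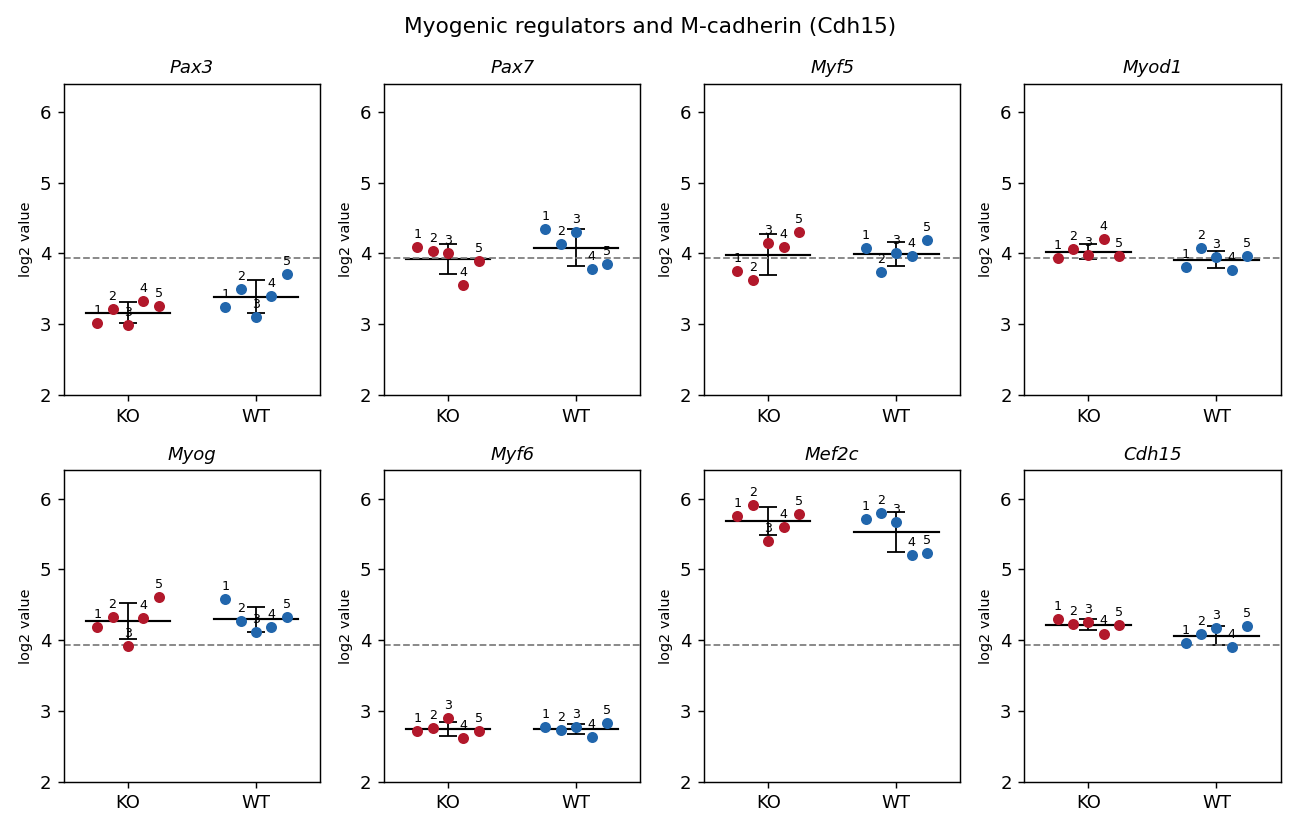
Values of the 7 transcription factors and of Cdh15 on each array (vertical axis, log2), KO left of WT, with the replicate number above each point; lines and bars are the mean and SD of 5 arrays, and the dashed line is the 95th percentile of olfactory receptor genes, 3.94. KO and WT points overlap in every panel, and Pax3 and Myf6 lie under the dashed line on every array.

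Cdh15, M-cadherin, joins myoblasts and satellite cells to their neighbours. It had 4.30, 4.23, 4.26, 4.09 and 4.22 on the KO arrays, against 3.96, 4.09, 4.17, 3.90 and 4.20 on the WT arrays. The KO mean of 4.22 ± 0.08 lay above the WT mean of 4.06 ± 0.13 (SD, n = 5 each), by 0.16 with an interval of -0.02 to 0.33. The exact permutation p of Cdh15 was 0.0476, and its limma adjusted p was 0.839.

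Of the acetylcholine receptor subunits, Chrng, the gamma subunit of the embryonic receptor, had 4.09, 4.31, 4.17, 4.28 and 4.57 on the KO arrays, against 4.41, 4.38, 4.26, 4.27 and 4.21 on the WT arrays. KO array 5 was highest and KO array 1 lowest, with the WT arrays between them. Chrna1, the alpha subunit that binds acetylcholine, ranged over 3.49 to 3.78 on the KO arrays and 3.38 to 4.03 on the WT arrays. Chrnd, the delta subunit, ranged over 2.94 to 3.72 on the KO arrays and 3.01 to 3.80 on the WT arrays. All of these ranges overlapped. For calcium release, Ryr1, the release channel of skeletal muscle, ranged over 3.48 to 4.01 on the KO arrays and 3.40 to 3.97 on the WT arrays. Casq2, a calcium store protein of heart and slow muscle, ranged over 3.81 to 4.22 on the KO arrays and 3.68 to 3.97 on the WT arrays. Its means were 3.96 ± 0.16 in KO cultures and 3.81 ± 0.11 in WT cultures (SD, n = 5 each), and the difference of 0.15 did not pass (95% interval -0.04 to 0.35; limma adjusted p = 0.842; exact permutation p = 0.103).

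Acta1, skeletal alpha-actin, had the largest difference of the 34. Its values were 8.36, 8.99, 9.00, 9.03 and 8.97 on the KO arrays, against 7.82, 7.68, 8.21, 8.28 and 9.09 on the WT arrays. WT arrays 1 to 4 lay under all 5 KO arrays, and WT array 5 was the highest of the 10. The means were 8.87 ± 0.29 in KO cultures and 8.21 ± 0.55 in WT cultures (SD, n = 5 each), which differ by 0.66 (standard error 0.23, 95% interval 0.17 to 1.14), or 1.57-fold on the linear scale. The unadjusted limma p was 0.0121, the limma adjusted p was 0.821 and the exact permutation p was 0.0714. The difference was 0.67 between the male arrays, 2 KO and 2 WT, and 0.65 between the female arrays, 3 KO and 3 WT.

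Des, desmin, is the intermediate filament of striated and smooth muscle. Its values were 6.61, 7.09, 6.88, 7.53 and 6.77 on the KO arrays, against 6.69, 6.12, 6.58, 5.96 and 7.29 on the WT arrays. KO array 4 was highest and WT array 4 lowest, and WT array 5 stood above all KO arrays but one. The difference of 0.45 had an interval of -0.05 to 0.94 (limma adjusted p = 0.839; exact permutation p = 0.159), and it was 0.11 between male arrays and 0.67 between female arrays. Actc1, cardiac alpha-actin, which embryonic skeletal muscle also uses, had 5.38, 4.82, 5.05, 5.64 and 6.14 on the KO arrays, against 5.26, 4.60, 5.11, 4.92 and 5.20 on the WT arrays. KO arrays 5, 4 and 1 were the 3 highest of the 10. The Actc1 difference of 0.39 had an interval of -0.07 to 0.85 (limma adjusted p = 0.841; exact permutation p = 0.175), and it was 0.03 between male arrays and 0.63 between female arrays. The muscle actin genes are closely related, and the probe sequences were not checked. Smooth muscle actins Acta2 and Actg2 were bright here with means of 12.14 and 11.10, and the share of their signal in the Acta1 and Actc1 probe sets was not tested.

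The order of WT arrays seen for Acta1, array 5 above arrays 1 to 4, was also found in 9 of 13 smooth muscle markers, the exceptions being Smtn, Actg2, Cald1 and Synpo2. It held for 17 of the 34 skeletal muscle genes themselves and for 3 of the 14 fibroblast markers. Among the other lists given below, it held for 6 of 11 genes of muscle metabolism and 13 of 32 other sarcomere genes. It also held for 4 of 10 heart, 4 of 10 endothelial, 0 of 10 macrophage and 0 of 7 cartilage markers. How many of all genes had this order was not counted, so it cannot be called particular to smooth muscle markers. Cnn1, calponin of smooth muscle, had 10.51, 10.91, 10.91, 11.13 and 10.70 on the KO arrays, against 10.25, 10.21, 10.47, 10.49 and 10.90 on the WT arrays. Myocd, the serum response factor coactivator of smooth muscle and heart, had 4.44, 4.48, 4.64, 4.53 and 4.34 on the KO arrays, against 3.98, 3.95, 3.90, 4.20 and 4.40 on the WT arrays. Of the 13 smooth muscle markers, all had a higher mean in KO cultures, also after median centring and quantile normalization, 3 with an unadjusted limma p under 0.05 and 0 after adjustment, and their median difference was 0.12. Over all genes, 50.7% had a higher mean in KO cultures, 3.25% with such a p, and the median was 0.0020. Their summed linear level ranged over 14124 to 15931 on the KO arrays and 12840 to 15616 on the WT arrays. All 13 lay above the olfactory 95th percentile, and their part in the Acta1, Des and Actc1 values was not tested.

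The myosin light chain Mylpf, of fast skeletal muscle, varied most of all 34. Its values were 5.56, 4.38, 4.70, 6.52 and 6.79 on the KO arrays, against 5.37, 4.77, 4.94, 4.64 and 6.74 on the WT arrays. KO arrays 4 and 5 and WT array 5 stood at 6.52 or more, and the other 7 arrays at 5.56 or less, so that high cultures were present in both genotypes. The means of 5.59 ± 1.07 in KO cultures and 5.29 ± 0.86 in WT cultures (SD, n = 5 each) differed by 0.30, with an interval of -0.75 to 1.34 (limma adjusted p = 0.940; exact permutation p = 0.683). The 3 high arrays were all female, while the female KO array 2 and WT arrays 2 and 4 were low. Myl1, the essential light chain of fast muscle, had 4.24, 4.32, 4.71, 4.75 and 5.01 on the KO arrays, against 4.49, 4.28, 4.65, 4.60 and 4.88 on the WT arrays. Array 5 was highest in both genotypes. Myl4, the embryonic and atrial light chain, had 3.79, 3.99, 3.998, 4.39 and 4.16 on the KO arrays, against 3.66, 3.83, 3.43, 4.17 and 4.08 on the WT arrays. Arrays 4 and 5 were the highest of each genotype, and the Myl4 difference of 0.23 did not pass (limma adjusted p = 0.842).

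Myosin heavy chains had low values, and none separated the genotypes. Myh2, of fast oxidative fibres, had 4.06, 3.69, 3.71, 3.60 and 4.39 on the KO arrays, against 3.78, 4.43, 3.59, 3.94 and 4.59 on the WT arrays. Its highest values were on WT arrays 5 and 2 and KO array 5. Myh7, of slow muscle and heart, had 3.08, 4.24, 3.65, 3.68 and 4.11 on the KO arrays, against 3.92, 4.10, 3.78, 3.56 and 3.998 on the WT arrays. The highest and the lowest Myh7 value were both on KO arrays. Myh2 and Myh7 differed by -0.18 and -0.12 (limma adjusted p = 0.905 and 0.937; exact permutation p = 0.484 and 0.635). Myh3, the embryonic heavy chain, ranged over 2.26 to 2.82 on the KO arrays and 2.28 to 2.92 on the WT arrays. Myh8, the perinatal heavy chain, ranged over 3.56 to 4.11 on the KO arrays and 3.42 to 3.97 on the WT arrays. Myh1, of fast glycolytic fibres, ranged over 2.57 to 3.01 on the KO arrays and 2.40 to 3.27 on the WT arrays. Heavy chains of the Myh cluster are closely related, and their probe sequences were not checked, so their separate levels are uncertain. Myh1, Myh2, Myh3 and Myh8 lie on chromosome 11 with Zbtb4, with 60 to 64 protein-coding genes between, and Myl4 lies there with 728 between.

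Troponin is the calcium switch of the thin filament. Tnnc1, the calcium-binding subunit of slow muscle and heart, had 6.60, 6.17, 6.75, 7.31 and 7.72 on the KO arrays, against 6.84, 6.49, 6.96, 6.61 and 7.32 on the WT arrays. Its 3 highest values were on KO array 5, WT array 5 and KO array 4, as for Mylpf. The Tnnc1 difference was 0.07, with an interval of -0.47 to 0.61 (limma adjusted p = 0.979; exact permutation p = 0.841). Tnnc2, the subunit of fast muscle, had 5.41, 5.05, 5.27, 5.44 and 5.66 on the KO arrays, against 5.36, 5.19, 5.23, 5.24 and 5.55 on the WT arrays. The same 3 arrays were highest, within a narrower range of 0.61.

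Tnnt2, the tropomyosin-binding subunit of heart and embryonic muscle, had 6.64, 7.21, 6.87, 7.34 and 7.55 on the KO arrays, against 6.92, 6.41, 6.90, 7.33 and 7.77 on the WT arrays. Arrays 4 and 5 were the highest of each genotype, and the difference was 0.06 (limma adjusted p = 0.983; exact permutation p = 0.849). Tnnt3, its fast muscle counterpart, had 4.59, 4.44, 4.59, 4.80 and 4.90 on the KO arrays, against 4.74, 4.55, 4.47, 4.45 and 4.57 on the WT arrays. KO arrays 4 and 5 were highest and WT array 5 was not. Tnnt1, of slow muscle, ranged over 3.57 to 4.02 on the KO arrays and 3.65 to 4.08 on the WT arrays.

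Of the inhibitory subunits, Tnni1 of slow muscle had 5.21, 5.07, 5.24, 5.29 and 5.61 on the KO arrays, against 5.36, 5.45, 5.11, 5.33 and 5.79 on the WT arrays. Array 5 was the highest of both genotypes. Tnni2 of fast muscle had 4.05, 4.48, 4.70, 4.79 and 4.77 on the KO arrays, against 4.62, 4.56, 4.81, 4.54 and 4.52 on the WT arrays. KO array 1 was lowest, and WT arrays 4 and 5 were among the lower ones. The genes of the giant proteins hardly varied, at means of 3.22 for Ttn and 3.32 for Neb, both under the olfactory 95th percentile. Ttn, titin, the spring of the sarcomere, ranged over 3.16 to 3.34 on the KO arrays and 3.14 to 3.34 on the WT arrays. Neb, nebulin, the ruler of the thin filament, ranged over 3.23 to 3.40 on the KO arrays and 3.26 to 3.40 on the WT arrays. Ckm, muscle creatine kinase, ranged over 3.16 to 3.69 on the KO arrays and 3.12 to 3.55 on the WT arrays.

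**Figure D3:**
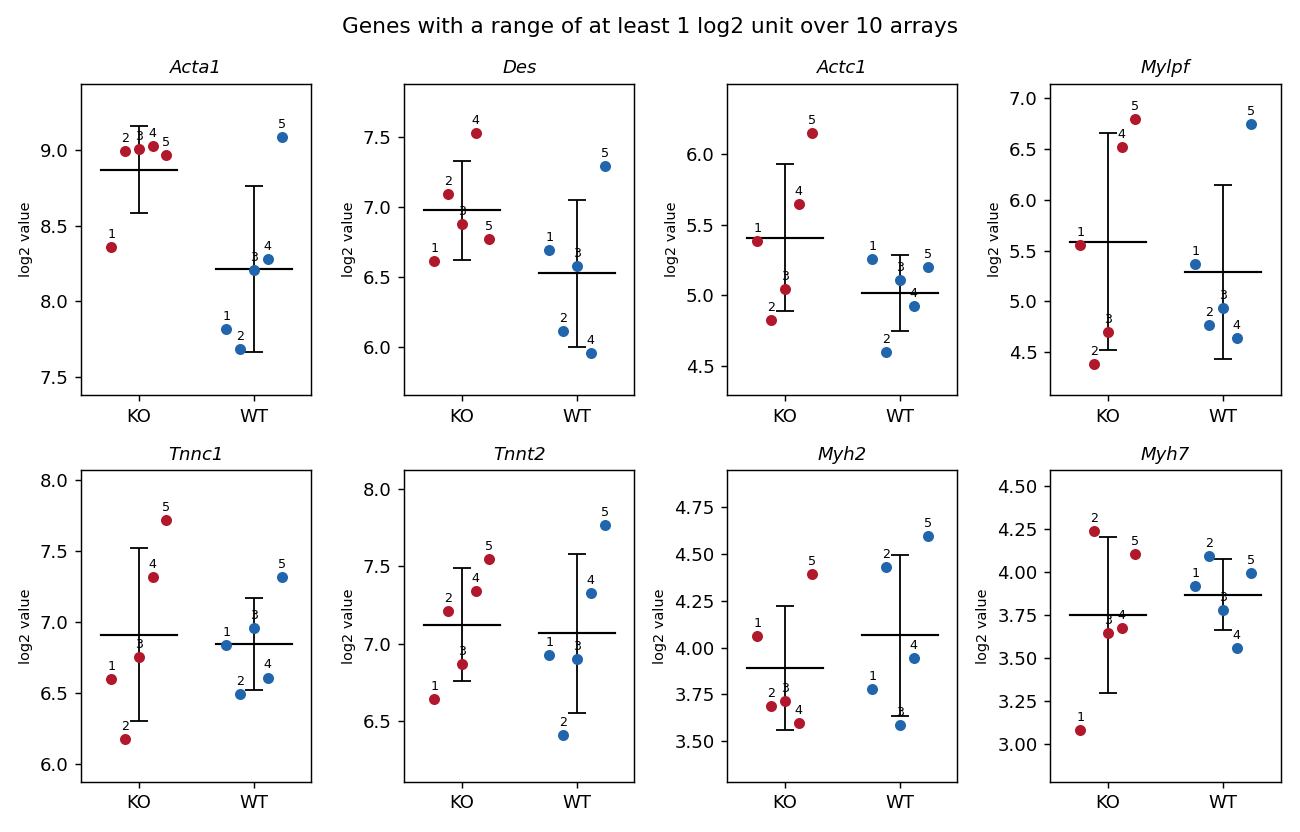
Values on each array (vertical axis, log2, a separate scale per gene) of the 8 genes with a range of at least 1 log2 unit, KO left of WT, with the replicate number above each point; lines and bars are the mean and SD of 5 arrays. Mylpf stands at 6.52 to 6.79 on KO arrays 4 and 5 and WT array 5 and at 4.38 to 5.56 on the other 7, and KO and WT points overlap in every panel.

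Several of the genes differed widely between cultures of the same genotype. Of the 34 genes, 8 had a range of at least 1 log2 unit over the 10 arrays (Des, Acta1, Actc1, Myh2, Myh7, Mylpf, Tnnt2 and Tnnc1), where 6.37% of all genes did. The ranges of the other 26 ran from 0.16 for Neb to 0.95 for Myl4. The median SD over 10 arrays was 0.22 for the 34 and 0.16 for all genes. Set beside the 500 genes nearest to each in mean level, 7 of the 34 had an SD above that of over 95% of them (Des, Acta1, Actc1, Myh2, Mylpf, Tnnt2 and Tnnc1), and 10 had an SD under that of the median neighbour, among them Myod1, Myf6, Ttn and Neb.

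Male and female arrays were set against each other with genotype in the fit, and 0 of the 34 genes passed the adjustment. The smallest unadjusted p-values were those of Pax3, Myl4 and Pax7, with differences, male minus female, of -0.31, -0.38 and 0.31 (limma adjusted p = 0.728, 0.728 and 0.751). In no gene did the genotype difference itself depend on sex at an adjusted p under 0.05. Chrna1 came nearest, with 0.29 between male KO and WT arrays and -0.25 between female ones (limma interaction, adjusted p = 0.841).

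High values gathered on 3 arrays. KO array 5 held the highest of the 10 values for 12 of the 34 genes, WT array 5 for 8, KO arrays 2 and 4 for 4 each, and every other array for at most 2. KO array 5 was among the 3 highest arrays for 22 genes, WT array 5 for 18 and KO array 4 for 15. For the 8 genes with a wide range, KO array 5, WT array 5 and KO array 4 lay above the gene means by 0.59, 0.54 and 0.37 log2 units on average, and WT arrays 2 and 4 lay at -0.39 and -0.31. Not every gene followed this order: among KO arrays, Acta1 and Des were second lowest on array 5, and Actc1 and Tnnt3 stood at 5.20 and 4.57 on WT array 5, under KO arrays 4 and 5. How often each array was highest over all genes was not counted, so the gathering cannot be called particular to muscle genes. Snx4 and Tax1bp1, which are not among the 34 and were picked for likeness to Mylpf, were also highest on KO arrays 4 and 5 and WT array 5.

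**Figure D4:**
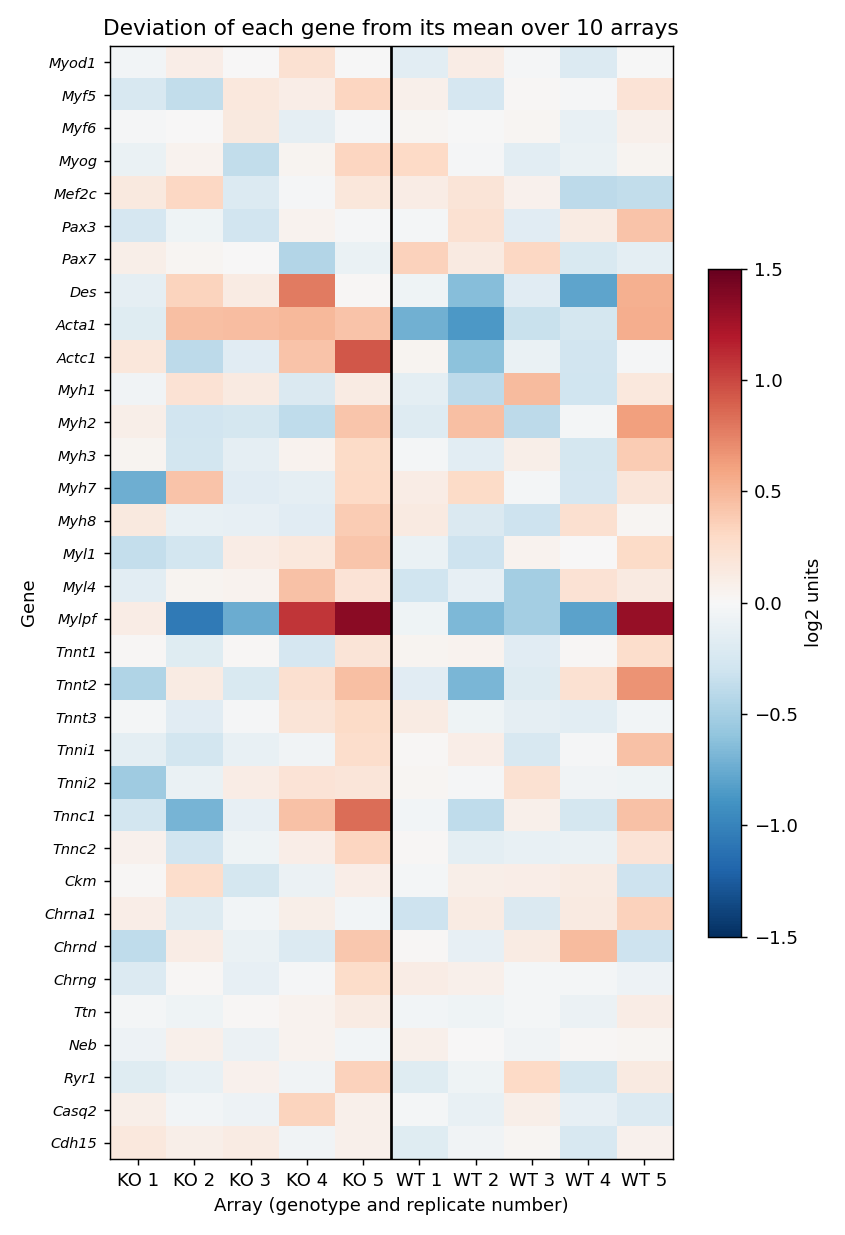
Deviation of each of the 34 genes (rows) from its own mean over 10 arrays, in log2 units by colour, with KO arrays left of the vertical line and WT arrays right of it. KO array 5 is above the mean by 0.28 on average over the 34 genes and WT array 5 by 0.18, and Mylpf gives the strongest colours.

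Genes outside the 34 were ranked by Pearson's r with Mylpf over the 10 arrays. Gene models without a proper symbol, micro RNAs and other small RNAs were passed over. The most like Mylpf were Olfr826 (r = 0.943), Snx4 (0.942), Acadl (0.941), Mef2a (0.941) and Slc27a1 (0.940). Mylpf falls into 3 high and 7 lower arrays, so an r measures little beyond likeness to that split, and an olfactory receptor heads this ranking. Among the 34, Tnnc2 (r = 0.939), Ttn (0.893), Tnnc1 (0.892) and Myh3 (0.884) were nearest to it. Ttn and Myh3 lie under the olfactory 95th percentile, and Ttn varied by 0.20 log2 units in all.

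Correlations were computed for 8 pairs of the genes over the 10 arrays, with permutation p-values adjusted over the 8. Myog and Chrng had the closest relation (Pearson r = 0.779, permutation p = 0.00977, adjusted 0.0782; Spearman rho = 0.733, permutation p = 0.0209, adjusted 0.167), and r was 0.596 without KO arrays 3 and 5, those farthest from the Myog median. It did not pass the adjustment. For Myod1 and Myog, r was -0.07 (permutation p = 0.850) and rho 0.12. Pax7 and Myod1 gave r = -0.37 (permutation p = 0.290) and rho = -0.24, and r was 0.51 without KO array 4 and WT array 1. For Myog with Acta1, Actc1 and Des, r was -0.07, 0.51 and 0.16 (permutation p = 0.845, 0.132 and 0.662), and the value for Actc1 was 0.16 without KO arrays 3 and 5. For Tnnt2 with Actc1, r was 0.48 (permutation p = 0.162), and 0.41 without WT arrays 2 and 5. Acta1 and Mylpf gave r = 0.44 (permutation p = 0.197) and rho = 0.30, over values of Mylpf that are split as described.

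Further genes of the muscle programme, from lists written down beside the 34, also had no call after adjustment. Of 14 measured regulators, 10 had a higher and 4 a lower mean in KO cultures. Met, the receptor that guides migrating muscle precursors, had 6.17 ± 0.07 in KO cultures and 6.52 ± 0.31 in WT cultures (SD, n = 5 each; limma adjusted p = 0.821). Msc, musculin, a bHLH repressor in myoblasts, had 4.44 ± 0.27 in KO cultures and 4.19 ± 0.08 in WT cultures (SD, n = 5 each; limma adjusted p = 0.830). All 10 measured inhibitors of the bHLH factors had a lower mean in KO cultures, where 50.7% of all genes had a higher one. Of the 10, 0 had an unadjusted limma p under 0.05, and their median difference was -0.06. The differences ran from -0.19 for Id3 to -0.01 for Twist1. Id1, Id2, Id3 and Snai1 were all highest on KO array 2, so the genes are not separate observations. Under quantile normalization 8 of the 10 were lower, Twist1 and Zeb1 being the exceptions.

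Of 32 other sarcomere genes, 23 had a higher and 9 a lower mean in KO cultures, 6 and 0 of them with an unadjusted limma p under 0.05 (3.25% and 2.73% of all genes), and the median difference was 0.09. The list's Myom1, myomesin of the M line, had 6.11 ± 0.37 in KO cultures and 5.60 ± 0.33 in WT cultures (SD, n = 5 each; limma adjusted p = 0.821). Ldb3, a protein of the Z disc, had 5.36 ± 0.22 in KO cultures and 4.97 ± 0.23 in WT cultures (SD, n = 5 each; limma adjusted p = 0.821). It was counted among the smooth muscle markers as well, also there with an unadjusted limma p under 0.05, so the lists are not separate. Only 7 of these 32 lay above the olfactory 95th percentile. Of the 6 with an unadjusted limma p under 0.05, Unc45b, Mybpc2, Myom2 and Trim54 had means of 2.88, 2.49, 2.52 and 3.56, under that percentile. Of 20 genes of excitation and the neuromuscular junction, 14 were higher on average in KO cultures and 6 lower, 1 and 0 of them with an unadjusted limma p under 0.05. That gene, Sln, had a mean of 2.49, also under the olfactory 95th percentile. Of 11 genes of muscle metabolism, 9 were higher on average in KO cultures and 2 lower, with such a p for 1 of each, and 7 were higher and 4 lower after median centring and under quantile normalization. Eno3, the muscle enolase, had 7.54, 7.41, 7.49, 7.77 and 7.61 on the KO arrays, against 6.91, 6.79, 7.12, 7.28 and 7.66 on the WT arrays. WT arrays 1 to 4 lay under all KO arrays, as for Acta1, and WT array 5 stood second to KO array 4 (limma adjusted p = 0.821).

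Markers of other cells that such a culture can hold had no call after adjustment either. Over all genes, 50.7% had a higher mean in KO cultures. An unadjusted limma p under 0.05 came with a higher mean in 3.25% of all genes and with a lower mean in 2.73%. Of 10 heart markers, 6 had a higher and 4 a lower mean in KO cultures (4 and 6 under quantile normalization), 1 and 0 of them with an unadjusted limma p under 0.05. That gene, Nppb, a natriuretic peptide, had 6.92 ± 0.17 in KO cultures and 6.38 ± 0.60 in WT cultures (SD, n = 5 each; limma adjusted p = 0.821). Myh6, the defining heavy chain of heart, was not above the olfactory 95th percentile. Myh6 and Tnni3 were counted among the other sarcomere genes as well. Of 10 endothelial markers, 8 were higher on average in KO cultures and 2 lower, 2 and 0 of them with such a p. Those with such a p, Cdh5 and Esam, had means under that percentile. Of the 10, 4 lay above that percentile. Cdh5, the cadherin of endothelial junctions, had 3.84, 3.55, 3.65, 3.23 and 3.54 on the KO arrays, against 2.94, 2.89, 2.96, 3.17 and 2.80 on the WT arrays. Its KO and WT arrays did not overlap, as for 0.987% of all genes, and all lay under that percentile (difference 0.61; by limma, unadjusted p = 8.89e-05 and limma adjusted p = 0.628). Of 10 macrophage markers, 8 were higher on average and 2 lower (7 and 3 after median centring), with an unadjusted p under 0.05 for 0, and 5 lay above that percentile. Higher and lower means numbered 5 and 2 for neural crest and Schwann cell markers, 3 and 4 for epithelial markers and 4 and 3 for cartilage markers as deposited, with such a p for 0, and median centring or quantile normalization changed these counts by at most 2. Fibroblast markers had 5 higher and 9 lower means, 0 and 1 of them with such a p.

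Summed linear levels of these lists overlapped between genotypes, but a sum weighs bright probe sets most. Heart markers summed to 264 to 327 on the KO arrays and 220 to 331 on the WT arrays, endothelial markers to 232 to 431 on the KO arrays and 299 to 399 on the WT arrays, and macrophage markers to 153 to 427 on the KO arrays and 185 to 250 on the WT arrays. Neural crest and Schwann cell markers, 2 of 7 above the olfactory 95th percentile, summed to 107 to 124 on the KO arrays and 98.1 to 122 on the WT arrays. Cartilage markers, 3 of 7 above it, summed to 180 to 289 on the KO arrays and 197 to 239 on the WT arrays. Epithelial markers, 2 of 7 above it, summed to 230 to 577 on the KO arrays and 243 to 347 on the WT arrays, of which Krt18 alone made up 67.0% to 86.9%, while Krt14, Epcam, Cdh1 and Trp63 lay under that percentile. The 14 fibroblast markers summed to 20888 to 22318 on the KO arrays and 21062 to 22268 on the WT arrays. The part of these cells in the muscle gene values was not tested.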

How the data were processed

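Biotin-labelled total RNA of 5 KO and 5 WT fibroblast cultures was measured on Affymetrix arrays in a single colour, per the labels. The authors deposited log2 values, as judged from their range; probe summarisation, background correction and normalization are not given in the sources used here, and a difference in RNA content per cell could have been removed by it. Of 41345 probe sets, 23521 had 1 symbol in the platform annotation, 1814 several and 16010 none, and only the first kind was used. RefSeq held the gene of 23328 of those probe sets, and 0 symbols changed. A gene was represented by its brightest probe set on average. Of the 34 genes, 4 (Ckm, Mef2c, Myh8 and Ryr1) had 2 probe sets, and those of Ckm differed in sign (0.01 for the set used and -0.11 for the other).

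KO minus WT was fitted for all 22180 genes in limma 3.58.1 (lmFit, then eBayes; R 4.3.3) without covariates, with Benjamini-Hochberg adjustment over all genes and a threshold of 0.05; the fit was tested on simulated data. For single genes all splits of the arrays into 5 and 5 gave an exact permutation p, two-sided, and gene pairs were permuted 100000 times, two-sided. Figures used matplotlib 3.10.9.

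The genes and lists were chosen with earlier results of these data known. Every array's value is given for genes above the olfactory 95th percentile or with a range of at least 1, and a test for those with an unadjusted p under 0.05, filled to 6 by the smallest p, and for Pax3, Pax7, the bHLH factors and Des; the other wide-ranging genes and Myl4 were given a test after their values were seen. Of each other list at most 3 genes are named by the smallest p, and further ones only as a marker's level or an exception. Values within each sex were added after the sex of the arrays had been read from the data. Alternatives were quantile normalization, centring, a filter on dim genes, other probe set rules and variance models, array weights, a replicate block, a sex covariate, an adjusted p threshold of 0.1 and leaving out each array.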

Additional observations from a re-analysis of the deposited data

Results flagged for a closer look

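Acta1 on KO array 1, at 8.36, lay far below the other 4 KO arrays, which stood at 8.97 to 9.03. The gap is 0.908 of the range of the 5 arrays, above the critical value of 0.71 of Dixon's test for 5 samples. A ratio past that critical value comes up by chance in about 1 of 20 groups, and every one of the 34 genes was examined in both genotypes. Without KO array 1 the Acta1 difference was 0.78.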

How the results depend on the processing

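Under 20 alternatives, 0 of the 34 genes were called in either direction, and the smallest adjusted p of any member lay between 0.504 and 0.951 (limma). The count with an unadjusted p under 0.05 was 1 higher and 0 lower; it was 2 higher with array weights, 2 higher and 1 lower with the Y-linked level as a covariate, and 1 lower under quantile normalization and under median centring. With the replicate number as a block it was 3 higher (Acta1, Actc1 and Myl4) and 1 lower (Pax3). Whether the numbers pair the samples was not settled. Correlations of same-numbered KO and WT deviations, over the whole table without sex-linked markers, were 0.13, -0.065, -0.048, -0.033 and 0.042. Differently numbered pairs were not set beside them, and same-numbered arrays were of the same sex, so these values cannot decide it. Leaving out single arrays gave 1 to 3 higher and 0 to 1 lower: Acta1 each time, Des without KO array 1 or WT array 5, Actc1 without KO array 2 or 3, Cdh15 without KO array 4 or WT array 5, Myl4 without WT array 4, and Pax3, lower, without KO array 4 or WT array 3. The median difference of the 34 was -0.0067 under quantile normalization and ran from -0.036 without KO array 5 to 0.069 without WT array 5. Over all genes, unadjusted p under 0.05 split into 720 higher and 606 lower, against 528 and 830 with arrays centred on their medians and 341 and 459 without the dimmest 40% of genes, where 25 of the 34 remained. Of 302 alternative values for 16 genes, 18 turned sign, and 9 genes never did, among them Acta1 (0.52 to 0.87 with single arrays left out), Des (0.31 to 0.64), Actc1 (0.21 without KO array 5 to 0.54) Pax3 (-0.30 to -0.15), Pax7 (-0.24 to -0.078), Myod1 (0.069 to 0.15), Casq2 (0.089 to 0.19) and Myh2 (-0.30 without KO array 5 to -0.044 without WT array 5). With array weights Myf5 was 0.018 and Myog 0.0063. Leaving out single arrays gave -0.092 to 0.079 for Myf5, -0.045 to 0.026 for Myf6, -0.107 to 0.067 for Myog, -0.242 to 0.048 for Myh7, -0.0035 (without KO array 5) to 0.66 (without WT array 5) for Mylpf, -0.108 to 0.232 for Tnnt2 and -0.134 to 0.252 for Tnnc1. It gave correlations of -0.206 to 0.206 for Myod1 and Myog, -0.282 to 0.222 for Myog and Acta1, -0.710 to 0.077 for Pax7 and Myod1, 0.171 (without KO array 5) to 0.570 for Myog and Actc1, 0.277 (without WT array 2) to 0.591 for Tnnt2 and Actc1, and 0.656 to 0.826 for Myog and Chrng, which passed the adjustment only without KO array 1 (permutation adjusted p = 0.0459). The cause of these moves was not tested. The count of 8 genes with a wide range was the same under quantile normalization and with the mean of all probe sets.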
